A study of Mus musculus with 6 samples.

Results

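The primitive endoderm is the extraembryonic layer that separates from the pluripotent epiblast in the mouse blastocyst and gives rise to the visceral and parietal endoderm of the yolk sac. The measurements below follow 10 genes that mark it, in mouse embryonic stem (ES) cells with and without depletion of Chd4, the ATPase of the NuRD chromatin remodelling complex. The genes were Gata4, Gata6, Sox7, Sox17, Foxa2, Hnf4a, Dab2, Cubn, Amn and Ttr, out of 19057 genes with a named probe on the arrays. Every probe annotated to one of these symbols was taken, whatever its values, which gave 18 probes out of 45281.

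RNA came from 3 control samples and 3 samples that received an shRNA vector against Chd4 (shChd4), each hybridised to its own Illumina MouseWG-6 array. The labels carry no replicate numbers, and those used here follow the order of the samples in the series. In both groups the ES cells were electroporated, grown on mouse embryonic fibroblast feeders treated with mitomycin C in 15% serum with leukemia inhibitory factor, and collected after puromycin selection that began 24 h after transfection and lasted 48 h. The label of the control samples says only that a control was transfected, and neither the ES cell line nor a removal of feeders before RNA extraction is named. By the titles each group was hybridised on a BeadChip of its own, and the effects of chip and shRNA cannot be told apart. No label ties the arrays to separate cultures, so the p-values measure the spread between these arrays, which may be technical.

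Primitive endoderm formation starts when Fgf4, secreted by epiblast precursors, signals through Fgfr2 and Fgfr1 and the ERK pathway to favour the GATA factor Gata6 over the pluripotency factor Nanog. Gata6 is followed by the SRY-related factor Sox17, by Gata4 and by Sox7, and Foxa2 and Hnf4a act in the visceral endoderm that forms later. The mature visceral endoderm is an absorptive epithelium: Cubn (cubilin) binds ligands at its surface, Amn (amnionless) anchors cubilin in the membrane, Dab2 is the endocytic adaptor of that receptor system, and Ttr (transthyretin) is a secreted carrier of thyroid hormone. NuRD is known in ES cells for repressing lineage genes.

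Of the 10 genes, 4 were higher after Chd4 shRNA, 1 was measured and did not pass the test, and 5 were too dim to be tested. Amn rose 3.65-fold, Dab2 2.58-fold and Gata6 2.12-fold, while Sox7 rose from below detection at least 1.36-fold under the background step and offset used. With the authors' values the Sox7 change was 0.20 on the log2 scale and did not pass (limma adjusted p = 0.116). Hnf4a was detected on every array, with a log2 fold change of -0.0012. Gata4 reached detection on 1 array, and Sox17, Foxa2, Cubn and Ttr on none. The share of all 9808 tested genes that were called higher was 19.9% (limma with Benjamini-Hochberg adjustment, adjusted p under 0.05), and 18.2% were called lower. Sox7 entered the test only through the shChd4 arrays, and of tested genes with that pattern 82.1% were called higher. The Sox7 call was lost in 8 of 15 alternatives. A gene was tested if its brightest probe had a detection p under 0.05 on at least 3 of the 6 arrays. Values are log2 intensities after background correction and quantile normalisation, and fold changes are shChd4 over control.

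**Figure D1:**
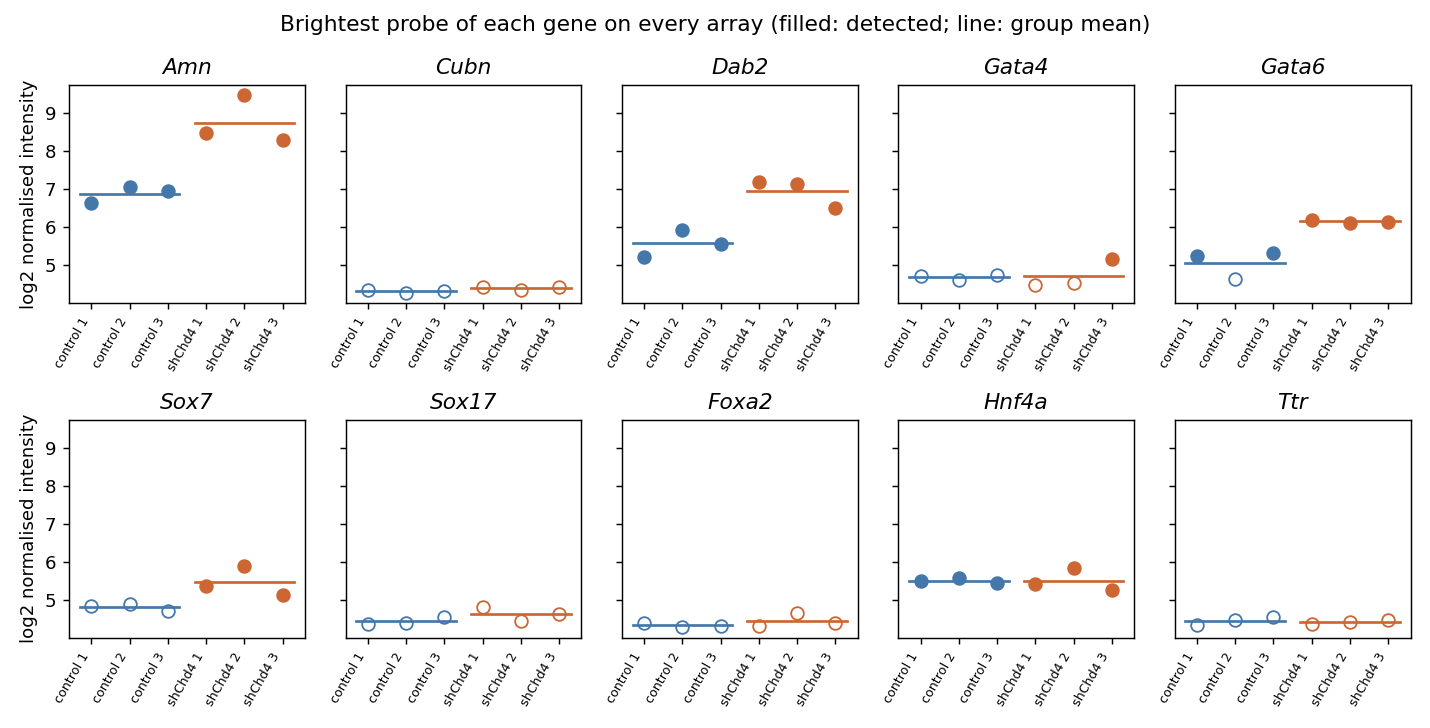
Log2 normalised intensity of the brightest probe of each gene (y axis) on the 3 control and 3 shChd4 arrays (x axis). Filled points were detected at p under 0.05, open points were not, and lines are group means; Amn, Dab2, Gata6 and Sox7 have every shChd4 point above every control point, while Cubn, Sox17, Foxa2 and Ttr have only open points. Heights can be compared within a panel, not between panels, because probes differ in brightness.

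The subunit genes of the cubilin receptor differed in detection: Amn was detected on every array and rose, and Cubn was detected on none. The Amn probe (ILMN_2675289) read 6.64, 7.07 and 6.94 in controls, against 8.48, 9.48 and 8.29 after Chd4 shRNA. The groups did not overlap, with a gap of 1.23 on the log2 scale between the highest control and the lowest shChd4 array, and shChd4 replicate 2 stood above the other shChd4 arrays. This is a log2 fold change of 1.87 ± 0.27 (SE, n = 3 arrays each; limma adjusted p = 0.00039), with a 95% confidence interval from 1.27 to 2.47. Every shChd4 array lay above every control array for all 4 genes that were called, as for 25.0% of all tested genes. Before any correction the Amn intensity was 199.0, 203.5 and 215.5 in controls and 481.4, 782.2 and 397.3 after Chd4 shRNA. Without shChd4 replicate 2 the log2 change was 1.51 and still passed (limma adjusted p = 0.000354).

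Cubn, whose product binds amnionless, has 1 probe. It read 4.34, 4.27 and 4.32 in controls and 4.44, 4.34 and 4.42 after Chd4 shRNA, with detection p-values from 0.443 to 0.986. Every shChd4 value lay above every control value, with a log2 difference of 0.09, and none passed detection. A change in the Cubn transcript was therefore not detectable at this brightness. Lrp2, the megalin gene, whose product works with cubilin in endocytosis, was detected on all 6 arrays and changed by -0.41 ± 0.21 (SE; limma adjusted p = 0.142), which did not pass. The Lrp2 values were 6.98, 7.45 and 6.65 in controls and 6.49, 6.56 and 6.80 after Chd4 shRNA, and the groups overlapped. The Lrp2 change rested on single control arrays: it was -0.59 and passed without control replicate 3 (limma adjusted p = 0.046), and -0.20 without control replicate 2 (limma adjusted p = 0.493).

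RefSeq promoter sequences (GRCm38.p6) were searched for 5 of the 10 genes, namely Amn, Cubn, Dab2, Foxa2 and Hnf4a, and not for the other members. The 250 bases before the annotated start are shown for Amn and Cubn because their products form 1 receptor while their probes differed in detection. They are read 5′ to 3′ on the strand of the gene, and capitals would mark a GATA factor motif (AGATAA or its variant AGATAG, and likewise TGATAA or its variant TGATAG, on either strand), of which neither window holds any.
Amn (chr12:111270846-111271095, plus strand): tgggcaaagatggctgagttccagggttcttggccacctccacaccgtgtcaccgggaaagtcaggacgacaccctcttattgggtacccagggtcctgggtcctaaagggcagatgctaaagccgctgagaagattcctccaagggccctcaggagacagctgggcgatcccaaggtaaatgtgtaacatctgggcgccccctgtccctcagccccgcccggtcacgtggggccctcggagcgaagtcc
Cubn (chr2:13491877-13492126, minus strand): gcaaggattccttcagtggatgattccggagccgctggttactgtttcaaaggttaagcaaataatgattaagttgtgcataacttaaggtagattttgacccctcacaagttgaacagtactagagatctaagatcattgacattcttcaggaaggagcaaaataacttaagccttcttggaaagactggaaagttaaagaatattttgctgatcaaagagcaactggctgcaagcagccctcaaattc
The Amn window had 61.2% G and C bases and 11 CpG dinucleotides, and the Cubn window 39.6% and 2. Over all 32851 windows of this length the medians were 52.4% and 6, so the windows lie on opposite sides of the median for base composition. A link between base composition and detection was not tested.

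Dab2, the adaptor that links the cubilin and megalin receptors to clathrin, rose on both of its detected probes. The brighter probe (ILMN_1243329), detected on all 6 arrays, read 5.22, 5.93 and 5.56 in controls and 7.19, 7.13 and 6.50 after Chd4 shRNA. The groups did not overlap, and replicate 3 was the lowest shChd4 array. Dab2 thus had a log2 fold change of 1.37 ± 0.23 (SE, n = 3 arrays each; limma adjusted p = 0.000938). The other detected probe was below detection on 2 control arrays and read 4.93, 5.08 and 4.91 in controls against 6.40, 6.52 and 6.37 after Chd4 shRNA. Its change was 1.45 ± 0.15 (SE; limma adjusted p = 2.8e-05 over 14610 probes each tested on its own), and its spread within a group was at most 0.17. The remaining 2 Dab2 probes were not detected on any array, with log2 changes of -0.13 and -0.05. Without background correction the change of the brighter probe was 0.62 and kept its call.

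The promoter table gives separate Dab2 starts, which are shown because, of the risers whose windows were searched (Amn and Dab2), Dab2 has a GATA motif. Capitals mark the motif.
Dab2, upstream start (chr15:6299539-6299788, plus strand): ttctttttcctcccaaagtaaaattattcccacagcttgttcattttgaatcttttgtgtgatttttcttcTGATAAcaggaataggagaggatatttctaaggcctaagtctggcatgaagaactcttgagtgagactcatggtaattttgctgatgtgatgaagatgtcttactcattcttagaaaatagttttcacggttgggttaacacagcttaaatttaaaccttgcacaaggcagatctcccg
Dab2, downstream start (chr15:6386498-6386747, plus strand): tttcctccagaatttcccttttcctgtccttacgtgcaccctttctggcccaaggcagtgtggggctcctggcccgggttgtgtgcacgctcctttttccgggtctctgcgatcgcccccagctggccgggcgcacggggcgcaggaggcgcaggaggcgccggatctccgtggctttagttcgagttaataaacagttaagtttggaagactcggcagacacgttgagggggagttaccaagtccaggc
The upstream window holds 1 match (TGATAA) and the downstream window, with 17 CpG dinucleotides against 2, holds 0. Of all 32851 windows, 26.5% hold at least 1 such match, and of the 9 windows of the 5 genes searched 3 do. The SOX motif AACAAT, the FOXA motif TGTTTAC with its variant TATTTAC, and a motif of HNF4A (CAAAGTCCA), searched on both strands, had 0 matches in these 9 windows, against 9.42%, 5.76% and 0.384% of all windows. The arrays do not show which start was used.

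Among the transcription factors that open the lineage, Gata6 rose and Gata4 did not reach detection in either group as a whole. The brighter Gata6 probe (ILMN_2868133) read 5.23, 4.64 and 5.32 in controls and 6.19, 6.11 and 6.14 after Chd4 shRNA. The shChd4 arrays lay within 0.08 of each other, and the control arrays spread over 0.68, with control replicate 2 below detection. The difference of the means was 1.09 ± 0.19 on the log2 scale (SE, n = 3 arrays each; limma adjusted p = 0.0013), with a 95% confidence interval from 0.66 to 1.51. Without background correction it was 0.38, and the call was kept. Of the tested genes detected on 2 control arrays and all shChd4 arrays, as Gata6 was, 34.5% of 371 were called higher, against 17.4% of the 7970 genes detected on all 6 arrays. The other Gata6 probe was not detected on any array and changed by 0.03.

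The Gata4 probe read 4.73, 4.61 and 4.76 in controls and 4.47, 4.52 and 5.15 after Chd4 shRNA. Only shChd4 replicate 3 passed detection, with a detection p-value of 0.0192, and the other shChd4 arrays were lower than every control array. The Gata4 gene was therefore left out of the test. Gata2, a GATA factor of blood and trophoblast, had a pattern of detection like Gata6, on 2 control arrays and all shChd4 arrays. Its log2 values were higher by 1.07 ± 0.22 (SE; limma adjusted p = 0.00355), from 5.53, 4.66 and 5.43 to 6.12, 6.29 and 6.41. Gata1, Gata3 and Gata5 were not detected on any array.

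Sox7 and Sox17 are close paralogs of the SoxF subfamily, which acts in endoderm and in endothelium. The brightest Sox7 probe (ILMN_2889482) was below detection on every control array, with values of 4.84, 4.90 and 4.72, and was detected on every shChd4 array, with values of 5.37, 5.88 and 5.12. The groups were separated by 0.22, less than the spread of 0.76 among the shChd4 arrays, of which replicate 2 was the highest. The fit gave a log2 difference of 0.64 ± 0.20 (SE, n = 3 arrays each; limma adjusted p = 0.0253; 0.0118 to 0.117 over its alternatives). The gene entered the test only through the shChd4 arrays, and of the 352 tested genes with that detection pattern 82.1% were called higher, so this call is not independent of the filter. It was lost in 8 of 15 alternatives, among them those without control replicate 1 (adjusted p = 0.0534), control replicate 3 (0.0714), shChd4 replicate 1 (0.0531) or shChd4 replicate 2 (0.0769, with a change of 0.43). The other Sox7 probes, detected on 2 shChd4 arrays and on 1, changed by 0.25 and 0.13, and their groups overlapped.

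Neither Sox17 probe was detected on any array. The brighter one read 4.37, 4.40 and 4.56 in controls and 4.80, 4.44 and 4.64 after Chd4 shRNA, with overlapping groups and detection p-values of at least 0.0694. The other Sox17 probe changed by 0.11. Sox18, the remaining SoxF gene and an endothelial factor, was like Sox7 detected on the shChd4 arrays alone, so its call is not independent of the filter either. It rose at least 1.17-fold (limma adjusted p = 0.0475), from 4.59, 4.50 and 4.94 to 4.99, 5.10 and 5.62. The Sox18 call was lost in 8 of 15 alternatives, among them no background correction and the authors' values (0.18 each, limma adjusted p = 0.15 and 0.149). Omitting control replicate 1 or 2, or shChd4 replicate 2 or 3, also lost it (limma adjusted p = 0.0592 to 0.172). Without shChd4 replicate 3 the Sox18 change was 0.36.

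Of the factors of the visceral endoderm, Foxa2 was not detected on any array, and Hnf4a was detected on all and did not pass. The Hnf4a probe (ILMN_1237767) read 5.49, 5.56 and 5.45 in controls and 5.41, 5.84 and 5.26 after Chd4 shRNA. The shChd4 values lay on both sides of the control values. The 95% confidence interval of the log2 fold change ran from -0.39 to 0.39 (limma adjusted p = 0.997), so on these arrays a change within that range could not be told from none. The Foxa2 probes changed by 0.13 and -0.12 with overlapping groups, and the highest Foxa2 value, 4.66 on shChd4 replicate 2, had a detection p of 0.131. The paralog Foxa1 was tested and did not pass, with a change of 0.40 ± 0.25 (SE; limma adjusted p = 0.238). It was 0.15 without shChd4 replicate 3, and 0.63 and 0.62 without shChd4 replicate 2 and control replicate 3, and passed in none of these.

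The Hnf4a promoter at its upstream start is shown as that of a member detected in both groups whose level did not pass the test, and it holds 1 GATA match, in capitals.
Hnf4a, upstream start (chr2:163506607-163506856, plus strand): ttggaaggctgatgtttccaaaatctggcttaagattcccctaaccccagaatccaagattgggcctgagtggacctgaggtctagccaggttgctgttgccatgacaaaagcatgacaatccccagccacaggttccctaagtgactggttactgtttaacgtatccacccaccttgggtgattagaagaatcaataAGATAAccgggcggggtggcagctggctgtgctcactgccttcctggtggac
Its downstream start has no such match. The probe does not tell transcripts from these starts apart.

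Ttr, a secreted product of mature visceral endoderm and liver, was not detected on any array. It read 4.34, 4.46 and 4.54 in controls and 4.37, 4.41 and 4.47 after Chd4 shRNA, with detection p-values from 0.271 to 0.803. Over the 12 probes detected on fewer than 3 arrays, the uncorrected intensities lay between 95.59 and 136.5 and the log2 changes between -0.13 and 0.25.

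**Figure D2:**
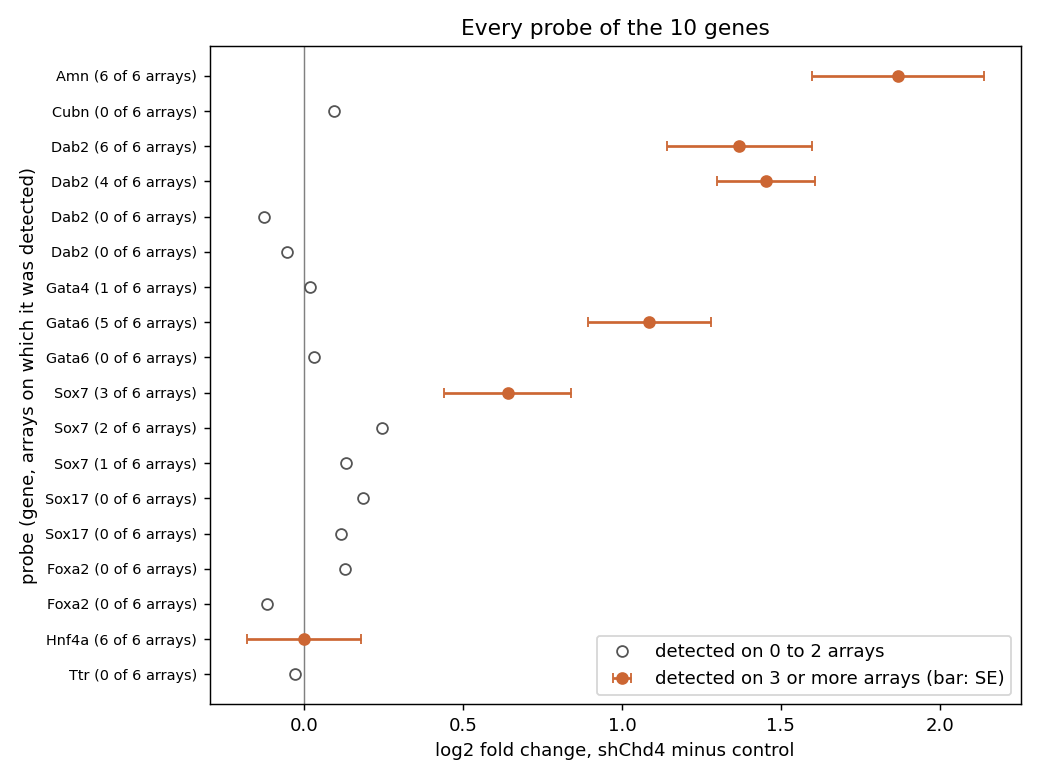
Log2 fold change (x axis) of all 18 probes, grouped by gene (y axis) with the number of arrays on which each was detected. Filled points with SE bars are the 6 probes detected on 3 or more arrays, open points the other 12. Those of Amn, Dab2, Gata6 and Sox7 that are filled lie to the right of the open points, which lie between -0.13 and 0.25. Open points are near background by the filter, so this gap is not independent of it. The Sox7 point is filled through the shChd4 arrays alone.

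The order of the shChd4 arrays was shared by some of the genes that rose, and for Dab2 it differed between its detected probes. Amn and Sox7 were highest on shChd4 replicate 2, by 2.60 and 1.07 above the control mean, and lowest on replicate 3, by 1.41 and 0.30. Hnf4a had the same order, from 0.33 above to 0.25 below the control mean. The brighter Dab2 probe was highest on replicate 1 (1.61 above the control mean, close to 1.56 on replicate 2) and lowest on replicate 3 (0.93). The other detected Dab2 probe had the order of Amn and Sox7, with 1.55, 1.42 and 1.39 on replicates 2, 1 and 3. Gata6 differed among the 3 arrays by less than any of these, with a range of 0.08. By the root mean square difference over the 6 arrays, after each gene was centred on its own mean, the tested genes nearest to Amn were Wnt7b (0.153) and Sfn (0.191), followed by the unnamed transcript 4933412E12Rik (0.206). Nearest to Gata6 were P2rx4 (0.105), Irak2 (0.107) and Cd274 (0.117), and nearest to Dab2 were Tmem266 (0.136), Elf1 (0.137) and Prph (0.156). For Sox7 they were B3gat1 (0.069), Fndc5 (0.079) and Ccdc166 (0.084), and for Hnf4a Dhx37 (0.041), Fntb (0.053) and Cuta (0.054). These distances are log2 units and describe likeness over 6 arrays in 2 groups.

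Fibroblast markers were higher on the same arrays as Amn, Dab2, Gata6 and Sox7. Of 25 markers, 19 were tested. Of these 17 rose (89.5%, against 19.9% of all tested genes) and 0 fell, also 0 at an unadjusted p under 0.05 (limma). Their median log2 change was 2.48 (2.13 with undetected controls at their bound), against -0.05 over all genes tested. Their summed normalised intensity ran from 3886 to 6331 on the control arrays and from 18171 to 24189 on the shChd4 arrays, while Fap and Postn were not detected on any array. Thbs2 and Dcn, matrix genes, rose by 4.57 and 5.39, the proteoglycan gene Lum at least 8.64-fold, and the transcription factor gene Twist2 by 2.89 (for all of these, limma adjusted p at most 2.81e-06). Without background correction, or with the authors' values, the Lum change was 1.72 on the log2 scale, and with the mean of its detected probes 2.27, so the size of the Lum rise depends on the processing. Another probe of Dcn and another of Lum reached detection on the shChd4 arrays alone, with log2 changes of 4.16 and 0.98. The brightest Lum probe was also detected on the shChd4 arrays alone, a pattern with which 82.1% of genes were called higher. The fibroblast mean was lowest on shChd4 replicate 2 of its group (8.94, against 9.22 and 9.27), where Amn and Sox7 were highest. Dab2 and Gata6 are also expressed in mesenchymal cells; the part of feeder cells in these rises was not tested. In RNA from whole cultures, a change in the share of cells of a type and a change in RNA per cell cannot be told apart.

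**Figure D3:**
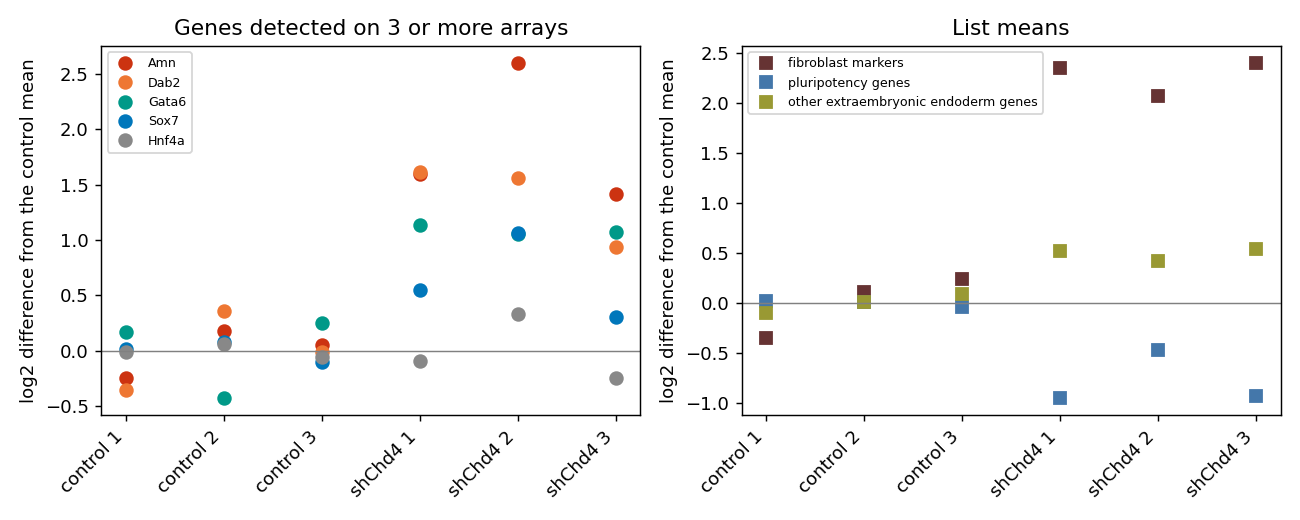
Difference from the control mean (y axis, log2) on each array (x axis) for the brightest probes of the 5 tested genes (left) and for the means of 3 gene lists (right). On shChd4 replicate 2, Amn and Sox7 are at their highest while the fibroblast mean is at its lowest among the shChd4 arrays and the pluripotency mean at its highest.

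Markers of other cell types that use these factors were also counted. Of 14 endothelial markers, 8 were tested, 5 rose (62.5%) and 1 fell (12.5%), against 19.9% and 18.2% of all tested genes. The risers include Sox18, whose call was lost in 8 of 15 alternatives. Flt1, a VEGF receptor gene, rose at least 2.23-fold. It entered the test only through the shChd4 arrays, a pattern with which 82.1% of genes were called higher. With the authors' values the Flt1 log2 change was 0.58 and the call was kept (limma adjusted p = 0.000844). The TGF-beta co-receptor gene Eng rose by 1.33 ± 0.18 (SE; limma adjusted p = 0.000255) and Esam by 1.35, and Vwf fell by 1.18 on the log2 scale. Cldn5, detected on all 6 arrays, rose by 1.35 (limma adjusted p = 0.00725). Tek and Pecam1, also detected on all 6, changed by 0.19 and -0.48 and did not pass (limma adjusted p = 0.494 and 0.0926). Cdh5, Emcn, Erg, Fli1 and Tie1 were not detected on any array. The summed intensity of the tested endothelial markers was 585 to 685 in controls and 926 to 1089 after Chd4 shRNA. Of 12 cardiac mesoderm markers, a tissue that uses Gata4 and Gata6, only 3 were tested. Of these Actn2 rose by 1.53 ± 0.16 (SE; limma adjusted p = 4.25e-05), Isl1 and Myh6 did not pass (0.39 and -0.19; Isl1 passed without control replicate 3, at 0.55 and a limma adjusted p of 0.0377), and Hand1, Hand2, Myh7, Nkx2-5 and Tbx20 were not detected on any array. The summed intensity of the tested cardiac markers was 233 to 269 in controls and 492 to 638 after Chd4 shRNA. Of 12 hepatocyte markers, whose tissue expresses Hnf4a and Ttr, 2 were tested and 0 passed (limma), or 0 at an unadjusted p under 0.05, and Alb was not detected. Their summed intensity was 58 to 80 in controls and 63 to 73 after Chd4 shRNA. Of 10 macrophage markers, 4 were tested and 3 were called higher: Lyz2 at least 3.61-fold, Cd14 at least 1.70-fold, and Fcer1g, with a bound of 1.00-fold. All of these were below detection in controls and entered the test only through the shChd4 arrays, a pattern with which 82.1% of genes were called higher, and the count was 0 when detection on all 6 arrays was required. With the authors' values the log2 changes of Lyz2 and Cd14 were 0.91 and 0.42, below these bounds. Ptprc, Adgre1, Itgam and Tyrobp were not detected. The summed macrophage intensity was 91 to 106 in controls and 198 to 266 after Chd4 shRNA. The part of these cell types in the results was not tested.

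The wider set of extraembryonic endoderm genes moved in both directions. Of 43 listed genes, 27 were tested, 15 rose (55.6%) and 9 fell (33.3%), against 19.9% and 18.2% of all tested genes. The median log2 change was 0.90, or 0.56 with genes below detection in controls at their bound. Among the risers were genes of matrix production, which fibroblasts also express. The collagen chaperone gene Serpinh1 rose by 3.24 ± 0.24 (SE; limma adjusted p = 5.17e-06; another detected probe changed by 1.98) and Col4a2, a basement membrane collagen gene, by 2.75 ± 0.22 (SE; limma adjusted p = 7.78e-06). Pdgfra, a receptor that marks primitive endoderm and mesenchyme, was undetected in controls and rose at least 2.32-fold. It entered the test only through the shChd4 arrays, a pattern with which 82.1% of genes were called higher. With the authors' values the Pdgfra log2 change was 0.57 and the call was kept (limma adjusted p = 0.000744). Another Pdgfra probe, detected on 2 shChd4 arrays, changed by 0.06. Among the genes that fell was Spink1, a trypsin inhibitor gene, which read 10.37, 10.04 and 9.82 in controls and 7.71, 8.07 and 7.62 after Chd4 shRNA (log2 fold change -2.27 ± 0.19, SE; limma adjusted p = 9.87e-06). Lama1, a laminin chain of Reichert's membrane, fell by 1.88 on the log2 scale and Gpc3, a heparan sulfate proteoglycan gene, by 1.36. The homeobox gene Hhex of the anterior visceral endoderm fell by 0.74. Of the apolipoprotein genes tested, Apoa2 was higher by 1.01 (limma adjusted p = 0.00536), while Apom, Apoc2 and Apoe had log2 changes of -0.71, -0.60 and -0.50 (limma adjusted p = 0.0115, 0.0267 and 0.0389). Apoa2 was detected on 1 control array, and its other probe on no array. With the authors' values the Apoa2 change was 0.35 and the call was kept (limma adjusted p = 0.0299). The Apoc2 call was lost in 9 of 16 alternatives, among them the authors' values (-0.19, limma adjusted p = 0.111). Omitting control replicate 1 or 2 or shChd4 replicate 1 or 3 also lost it (limma adjusted p = 0.0659 to 0.104). The Apoe call was lost without any 1 array other than shChd4 replicate 1 (limma adjusted p = 0.0524 to 0.160). Among the 12 genes not detected on any array were the yolk sac products Afp, Apoa1 and Rbp4. With only the genes detected on all 6 arrays, 8 rises were left, because 5 risers were below detection on every control array and others on some.

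Some of the signals that precede Gata6 changed, and others did not pass. Fgf4, the ligand, read 6.49, 7.18 and 7.08 in controls and 5.19, 5.96 and 5.03 after Chd4 shRNA. The groups did not overlap, and the log2 fold change was -1.52 ± 0.26 (SE; limma adjusted p = 0.000972), or -0.66 without background correction or with the authors' values, where the call was kept. Fgfr2, its receptor in primitive endoderm, rose by 1.46 ± 0.16 (SE; limma adjusted p = 6.34e-05), from 7.89, 7.95 and 7.53 to 9.31, 9.18 and 9.26. Another Fgfr2 probe, detected on the shChd4 arrays alone, changed by 0.53, and the remaining 2 were detected on none. Fgfr1 was near background and did not pass (0.39 ± 0.22, SE; limma adjusted p = 0.192; 0.22 to 0.58 over the omitted arrays). For the 21 tested genes of the FGF signal and of the factors that hold the lineage back, the median was -0.10. Among them 2 rose (9.52%, against 19.9% of all tested genes), 7 fell (33.3%, against 18.2%) and 12 did not pass. Among the last were Grb2 and Map2k2, at 0.33 and 0.06 (limma adjusted p = 0.248 and 0.804). The other riser was Ptpn11, a phosphatase that passes the FGF signal on, at 0.69. The ERK-induced genes Etv4 and Spry4 had log2 changes of -1.04 and -0.79. Etv5, another such gene, was detected on all 6 arrays and changed by 0.02 (limma adjusted p = 0.93). Dusp6, also ERK-induced, changed by 0.48 and did not pass (limma adjusted p = 0.0623). It passed in 5 of 17 alternatives: with the authors' values and with no background step (limma adjusted p = 0.0339 for each), with an offset of 50 (0.0323), with a trended and robust variance (0.0209) and without shChd4 replicate 2 (0.59, adjusted p = 0.0416). With the mean of its detected probes the Dusp6 change was 0.19 (limma adjusted p = 0.45).

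Nanog, which opposes Gata6, read 10.64, 10.35 and 10.39 in controls and 10.02, 9.79 and 9.04 after Chd4 shRNA (log2 fold change -0.84 ± 0.23, SE; limma adjusted p = 0.0148). The Nanog call was lost without control replicate 1 (limma adjusted p = 0.0505). Pou5f1 and the ES cell factor gene Prdm14 fell by 1.26 and 1.10. Of 14 pluripotency genes, which share 7 with the signalling list, all were tested. Of these 8 fell (57.1%, against 18.2% of all tested genes) and 0 rose, also 0 at an unadjusted p under 0.05 (limma). The list median was -0.71. Beside Pou5f1 and Fgf4, Gdf3 and Zfp42 fell by 1.71 and 1.01. The mean of this list was highest among the shChd4 arrays on replicate 2 (10.33, against 9.85 and 9.87).

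Genes of the definitive endoderm, the embryonic counterpart that shares Sox17 and Foxa2, did not move together. Of 14 listed genes 6 were tested. Of these 2 rose (33.3%, against 19.9% of all tested genes) and 0 fell, also 0 at an unadjusted p under 0.05 (limma). The list median was -0.32. The risers were Cldn6, a tight junction gene (0.91 ± 0.23, SE; limma adjusted p = 0.01), and the E-cadherin gene Cdh1 (0.54 ± 0.17, SE; limma adjusted p = 0.024), which ES cells also express. The Cdh1 call was lost when control replicate 2 or 3, or shChd4 replicate 2 or 3, was omitted (limma adjusted p = 0.0625 to 0.0822). Eomes, Mixl1 and Cxcr4 were not detected on any array.

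**Figure D4:**
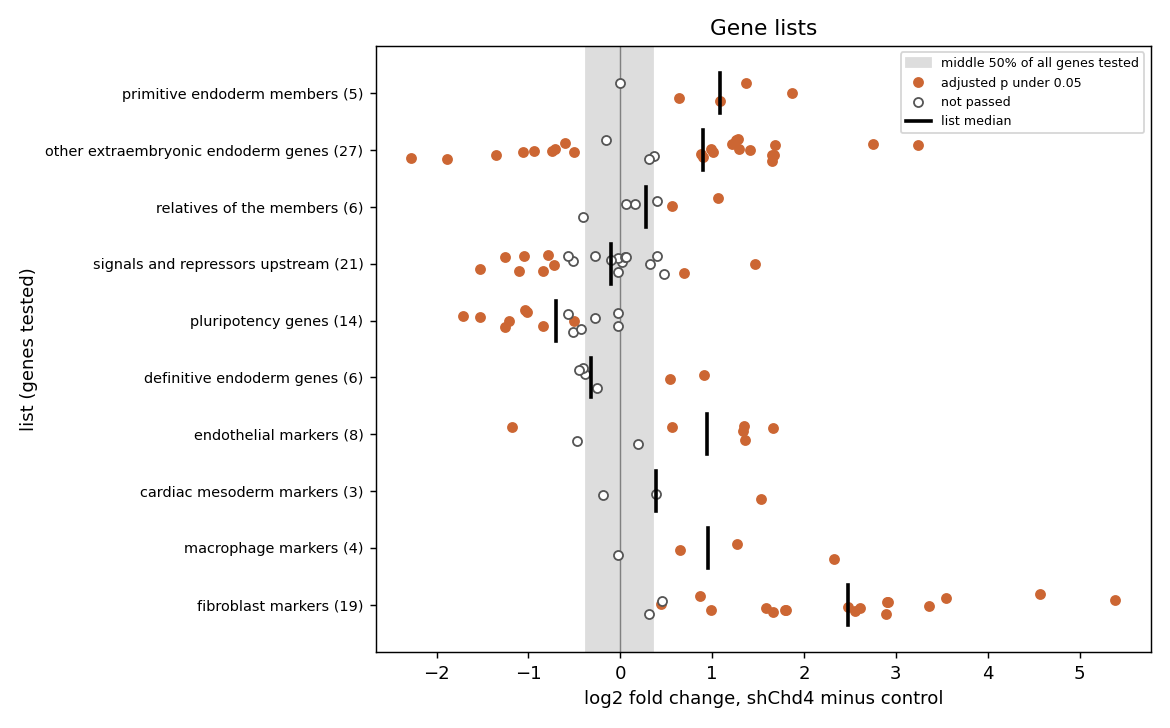
Log2 fold change (x axis) of each tested gene in 10 lists (y axis, with the number tested). Filled points passed at a limma adjusted p under 0.05, open points did not, black bars are list medians and the grey band holds the middle 50% of all genes tested; fibroblast markers lie furthest to the right, while the other extraembryonic endoderm genes split to either side.

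The label of the arrays was checked on Chd4 itself, whose brightest probe fell from 10.13, 10.13 and 10.17 to 8.06, 7.91 and 8.33 (log2 fold change -2.04 ± 0.16, SE; limma adjusted p = 6.33e-06). Between 34.93% and 35.6% of probes were detected on the control arrays and between 37.7% and 38.7% on the shChd4 arrays. Across the tested genes, which are not independent replicates, arrays of a group correlated with r of at least 0.983 and arrays of different groups with at most 0.950.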

How the data were processed

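The authors deposited scanner output with a linear intensity for 45281 probes on each of 6 arrays, and the deposited columns beside them hold detection p-values; the submitters' processing notes name GenomeStudio, without a version. The deposited series matrix holds the authors' intensity values for the same arrays, quantile-normalised as judged from their nearly equal medians (115.16 to 115.19), and served as an alternative. Intensities were background-corrected by normexp with parameters inferred from the detection p-values, given an offset of 16, quantile-normalised and log2-transformed (neqc, limma 3.58.1, R 4.3.3). The offset shrinks the fold changes of dim probes. Arrays give no read depth, and their number limits the precision.

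Symbols came from GEO's platform annotation: 34885 probes have 1 symbol, 18 several and 10378 none, and 34807 were matched through Entrez identifiers to RefSeq genes. A gene was its brightest probe, tested if detected (p under 0.05) on at least 3 arrays, by lmFit and eBayes with group as the only term, adjusted over 9808 genes. "At least" folds set the bright group against the higher of a dim probe's own signal and the lowest detected signal on each array. They are bounds under this background step and offset only. The authors' values gave smaller changes for Sox7, Sox18, Pdgfra, Flt1, Lum, Lyz2 and Cd14.

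The 10 genes and the 11 further lists (relatives, other extraembryonic endoderm, upstream signals, definitive endoderm, pluripotency, and cardiac, endothelial, hepatocyte, trophectoderm, macrophage and fibroblast markers) were chosen with earlier results of these data known. Named were all member probes, Chd4, up to 4 genes of each list with the smallest p and the 3 genes nearest to each tested member; Lrp2, Foxa1 and Gata2 fell under that rule, and further genes of a list were named after their values were seen. Alternatives changed the background step, offset, scaling, filter, probe rule, variance model and array weights, used the authors' values, or left out 1 array, in which case the 9808 genes were kept. The steps were tested on simulated arrays, with changes planted only in bright genes detected on every control array. Dim genes such as Gata6 and Sox7 were not covered by that test.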

Additional observations from a re-analysis of the deposited data

How the results depend on the processing

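The rises of Amn and Dab2 passed in 17 of 17 alternatives (log2 changes 1.32 to 2.11 and 0.62 to 1.59), and that of Gata6 in all 16 that kept the gene (0.38 to 1.22). The Sox7 call was lost in 8 of 15, including no background correction and the authors' values (0.20 each, adjusted p = 0.117 and 0.116), an offset of 50 (0.33, adjusted p = 0.0661) and no detection filter (adjusted p = 0.0617). Over these settings 2 to 4 members were called higher and 0 lower; only 2 rose among genes detected on all 6 arrays, where Gata6 and Sox7 are not tested, and leaving out arrays gave 3 to 4. Hnf4a passed in none. Its change turned positive without background correction (0.0039), with the authors' values or an offset of 50 (0.0042 each) and median scaling (0.13), and without control replicate 2 (0.03), shChd4 replicate 1 (0.043) or shChd4 replicate 3 (0.12); over the omitted arrays it ran from -0.17 to 0.12. Without background correction, 29 of 52 named genes had a change smaller in size by over 1.5 times. Genes called over all tested ran from 2865 to 3935. No paired analysis was possible because the labels carry no replicate numbers. The brightness of the probes limits what can be said of Gata4, Sox17, Foxa2, Cubn and Ttr.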

Other observations

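Trophectoderm genes, which belong to the other extraembryonic lineage of the blastocyst, gave 1 rise and 1 fall among 7 tested of 12, with a median log2 change of -0.01. Each is 14.3%, near the shares of all tested genes (19.9% higher and 18.2% lower). The riser was Tfap2c, an AP-2 transcription factor gene that ES cells also express, with 10.53, 10.94 and 10.94 in controls and 11.78, 12.27 and 12.10 after Chd4 shRNA (1.24 ± 0.19, SE; limma adjusted p = 0.000428). The keratin gene Krt8 fell by 0.72 on the log2 scale (limma adjusted p = 0.0207), and Krt18 and Cdx2 did not pass, at -0.64 and 0.48. Krt18 passed without control replicate 1 (-0.90) or shChd4 replicate 2 (-0.79) and was -0.38 without control replicate 3 (limma adjusted p = 0.227). Cdx2 passed without shChd4 replicate 3 (0.75; limma adjusted p = 0.0177) and was 0.25 without shChd4 replicate 1 (limma adjusted p = 0.441). Elf5, Eomes, Gata3 and Hand1 were not detected on any array. When control replicate 2 or 3, shChd4 replicate 1 or the detection filter was left out, 0 genes of this list were called lower.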
